A study of Mus musculus with 8 samples.

Results

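Hlf, which encodes the transcription factor hepatic leukemia factor, was examined in mouse pancreatic alpha cells together with 9 further genes of the circadian clock and its output. The 10 genes were Hlf, Dbp, Tef, Nfil3, Per1, Per2, Per3, Cry1, Nr1d1 and Nr1d2, out of 19494 named genes on the array, and each had 1 probe set. They were chosen by their gene symbols on the array and their known place in the clock, with results of these data in view, in which Hlf had one of the lowest fitted differences between the groups. The difference of Hlf is taken to have entered the choice and is given as a description, with no test, and the differences of the other members come from the same comparison.

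The study used alphaTC1.9 cells, a clonal mouse line derived from a glucagon-producing tumour, and measured total RNA on Clariom S arrays. The groups were A-IDE-KD cells, made with a small interfering RNA against the mRNA of insulin-degrading enzyme (4 arrays, here IDE-KD), and control cells (4 arrays). Both groups grew in the same medium with serum and had no further treatment. The sources used here give neither what the control cells received nor the time from knockdown to harvest, and they name no harvest hour and no synchronization of the cultures. Replicates are labelled as biological, and separate cultures are not named, so a p-value here measures how the samples of a group spread, which may be technical. The values are log2 expression values as deposited, where 1 unit is a doubling of signal.

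The mammalian clock is a feedback loop of transcription. CLOCK and BMAL1 (encoded by Clock and Arntl) activate genes through the E-box, among them the Per and Cry genes, whose proteins inhibit the pair, and Nr1d1 and Nr1d2, whose REV-ERB products repress Arntl and Nfil3 through the ROR element. The PAR bZIP factors DBP, TEF and HLF carry the rhythm to output genes by activating the D-box, which the NFIL3 protein binds as a repressor. In cultured cells each array averages many cells, and rhythms of single cells add up only where the cells run in phase. In mouse alpha cells REV-ERB alpha has been linked to glucagon secretion.

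Promoter windows are shown for the members on which the results turn: Hlf itself, Per3, whose fitted difference was the lowest after that of Hlf, and Nr1d2 and Dbp, which had the highest correlations with Hlf from array to array. Each window runs from 250 bases before to 50 bases after the gene start in RefSeq (GRCm38.p6), 5′ to 3′ in the direction of the gene. Capitals mark matches, on either strand, to the D-box (TTANGTAA), the E-box (CACGTG), the E-prime box (CACGTT), the cAMP response element (TGACGTCA) or the core of the ROR element (TAGGTCA). The window of Hlf lay at chr11:90390868-90391167 (minus strand), that of Per3 at chr4:151044616-151044915 (minus strand), that of Nr1d2 at chr14:18239057-18239356 (minus strand) and that of Dbp at chr7:45704997-45705296 (plus strand).
Hlf: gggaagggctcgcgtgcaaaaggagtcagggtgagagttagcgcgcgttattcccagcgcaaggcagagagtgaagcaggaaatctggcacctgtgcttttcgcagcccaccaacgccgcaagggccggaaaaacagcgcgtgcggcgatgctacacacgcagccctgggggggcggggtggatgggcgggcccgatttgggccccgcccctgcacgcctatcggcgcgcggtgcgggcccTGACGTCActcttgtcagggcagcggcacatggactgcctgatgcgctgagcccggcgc
Per3: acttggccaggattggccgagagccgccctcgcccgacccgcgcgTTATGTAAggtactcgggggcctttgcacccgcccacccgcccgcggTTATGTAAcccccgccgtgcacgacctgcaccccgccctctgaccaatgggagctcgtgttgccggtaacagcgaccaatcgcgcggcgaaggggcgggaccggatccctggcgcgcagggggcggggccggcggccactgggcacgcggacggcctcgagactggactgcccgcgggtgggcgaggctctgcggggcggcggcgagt
Nr1d2: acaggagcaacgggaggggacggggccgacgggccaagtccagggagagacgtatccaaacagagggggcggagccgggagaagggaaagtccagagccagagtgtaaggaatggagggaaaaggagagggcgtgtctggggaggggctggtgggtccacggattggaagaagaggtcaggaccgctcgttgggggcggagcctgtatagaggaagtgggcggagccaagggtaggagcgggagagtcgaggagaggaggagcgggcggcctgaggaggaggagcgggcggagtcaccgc
Dbp: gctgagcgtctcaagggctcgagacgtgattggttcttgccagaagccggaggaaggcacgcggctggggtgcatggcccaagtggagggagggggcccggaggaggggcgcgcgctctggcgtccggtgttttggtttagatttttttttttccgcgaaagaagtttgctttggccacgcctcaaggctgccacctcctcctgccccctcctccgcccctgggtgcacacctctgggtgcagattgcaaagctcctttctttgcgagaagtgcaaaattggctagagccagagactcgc

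The Hlf window held 1 cAMP response element, which began at position -9 from the gene start, a sequence found in 1.79% of 32851 promoter windows of the same length. The Per3 window held 2 D-boxes, both of the form TTATGTAA, which began at positions -205 and -158 from the gene start, and 2.32% of all windows held a D-box. The windows of Nr1d2 and Dbp held none of the 5 motifs. Windows were found for 9 of the 10 members, 11 windows in all, of which 8 held a match. The share of all windows holding any of the 5 motifs was not counted, so this count has no background. E-boxes stood in both windows of Tef, in 1 window of Per1 and in that of Cry1, E-prime boxes in those of Cry1 and Nr1d1, and the ROR core in that of Nfil3. Of all windows 7.15% held an E-box, 4.68% an E-prime box and 2.61% the ROR core. No 2 matches overlapped. A match describes the letters of the window and does not show that a factor binds there.

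The arrays were alike in their medians over the tested probe sets, which lay between 5.10 and 5.17. Their SDs over these probe sets ran from 2.13 on IDE-KD array 3 to 2.25 on IDE-KD array 2. Ide, the targeted gene, read 8.01 ± 0.11 in IDE-KD cells and 8.62 ± 0.10 in control cells (SD, n = 4 each), with no overlap. The cells carried the alpha cell markers that were measured: all 6 of 10 listed lay above the median array control row of 4.52 (the middle of 6923 exon, intron and other control probe sets), with Gcg, the glucagon gene, at 12.06 ± 0.10 in IDE-KD and 12.06 ± 0.07 in control cells (SD, n = 4 each). Of 21 measured markers of other islet, stromal, immune, endothelial, duct and acinar cells, 6 lay above that row: Ins2, Nkx6-1, Sst, Col1a1, Col1a2 and Thy1. The beta cell genes Iapp, Pdx1 and Mafa, the pan-immune gene Ptprc, the endothelial genes Pecam1 and Cdh5 and the duct gene Krt19 were all below it. Those 21 markers were higher in IDE-KD cells in 20 cases and lower in 1, with a median log2 difference of 0.15. Their summed log2 level was 84.6 to 90.7 on IDE-KD arrays and 80.7 to 86.4 on control arrays, and their part in the results below was not tested. Among the 9526 tested probe sets at or below the median array control row, 61.6% were higher in IDE-KD cells, against 44.9% of the 12616 above it.

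In IDE-KD cells Hlf was 1.64-fold lower than in control cells, and the other 9 members had group means within 1.2-fold of the control level in either direction. Per3 was the nearest to Hlf, and Dbp, Tef, Nfil3, Per1, Per2, Cry1, Nr1d1 and Nr1d2 each had group means closer together than that. From array to array within the groups, the members with the highest correlation to Hlf were Nr1d2 and Dbp, and no relation passed the adjusted threshold.

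Limma, fitted over 22142 probe sets, called 0 genes at an adjusted p under 0.05 (0% of those tested, smallest adjusted p = 1.00), and therefore 0 of the 10 members. Ide, the targeted gene, was 1.53-fold lower in IDE-KD cells and was not called either. The absence of calls therefore does not show that no gene changed. At an unadjusted p under 0.05 it gave 1017 probe sets, 4.59%, and among the members only Hlf, whose value was known when it was chosen. The groups did not overlap at 2.8% of all probe sets, at 1.41% with IDE-KD lower and at 1.39% with IDE-KD higher, and among the members at Hlf alone, with IDE-KD lower. All 10 members lay above the median array control row. In bulk RNA, fewer cells expressing a gene and less RNA per cell cannot be told apart.

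**Figure D1:**
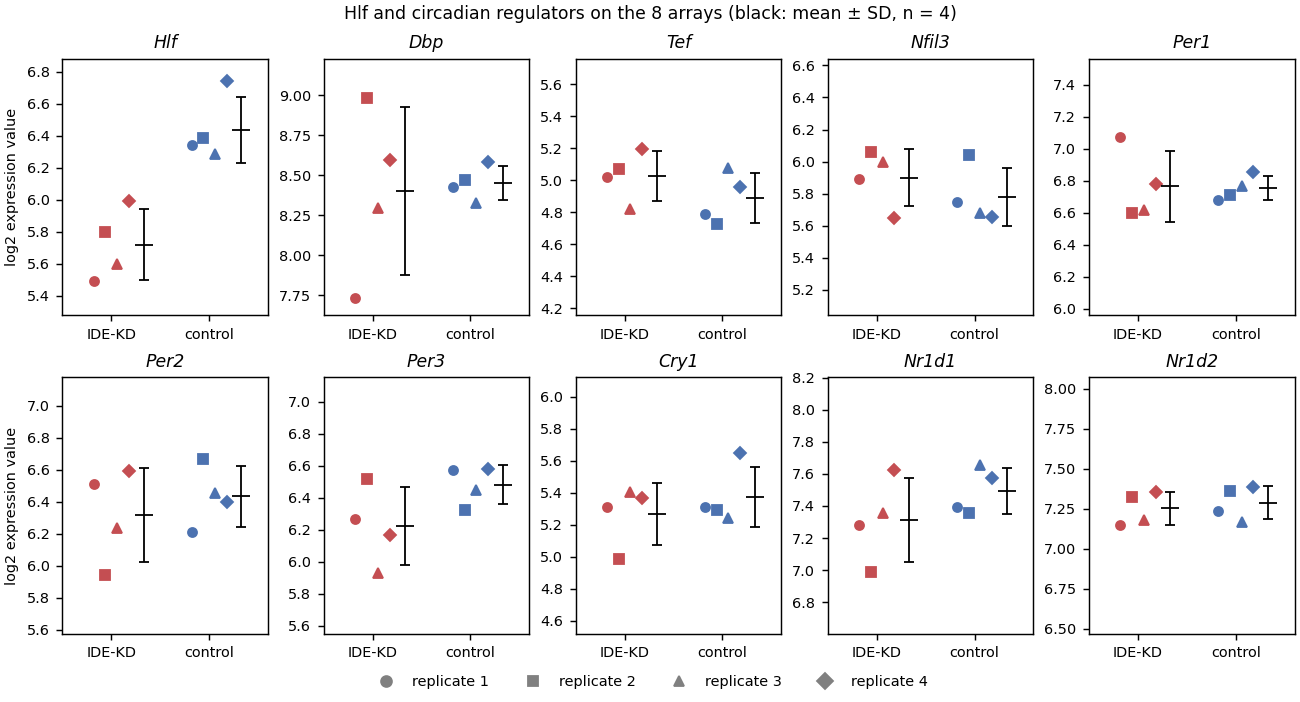
Log2 expression value (y axis, all panels spanning the same 1.6 log2 units) of each member on the 4 IDE-KD arrays (red) and the 4 control arrays (blue), with marker shapes for the replicate numbers and black bars for mean ± SD. Hlf is the member whose groups are apart, with IDE-KD arrays from 5.49 to 5.99 and control arrays from 6.29 to 6.74, and Dbp is the one whose IDE-KD arrays spread most, from 7.73 to 8.98.

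Among the PAR bZIP factors, Hlf read lower in IDE-KD cells, while Dbp and Tef overlapped between the groups. Hlf read 5.49, 5.80, 5.60 and 5.99 on IDE-KD arrays 1 to 4 and 6.34, 6.38, 6.29 and 6.74 on control arrays 1 to 4. Every IDE-KD array was below every control array, with the highest IDE-KD and the lowest control array 0.30 apart. The group levels were 5.72 ± 0.22 in IDE-KD cells and 6.44 ± 0.21 in control cells (SD, n = 4 each). On the log2 scale the fitted difference was -0.72 with an SE of 0.15 and a 95% confidence interval from -1.04 to -0.40. Leaving out 1 array at a time gave -0.81 to -0.62.

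Dbp, which encodes the D-site binding protein and is among the most strongly rhythmic clock outputs in mouse tissues, read 7.73, 8.98, 8.29 and 8.59 on IDE-KD arrays 1 to 4. The control arrays read 8.42, 8.47, 8.33 and 8.58, all inside the IDE-KD range. The group means were close, 8.40 ± 0.53 in IDE-KD and 8.45 ± 0.11 in control cells (SD, n = 4 each), and differed on the log2 scale by -0.05 (SE 0.21, 95% confidence interval -0.51 to 0.41). The spread was unequal: the SD of Dbp among IDE-KD arrays was larger than that of 97.9% of all probe sets, while its SD among control arrays exceeded that of 20.3%. Its ratio of IDE-KD SD to control SD was 4.98, a ratio exceeded by 2.43% of probe sets. Over all probe sets the SD was larger among IDE-KD arrays in 61.8%, with medians of 0.21 in IDE-KD and 0.17 in control cells. IDE-KD array 1 was the low one and array 2 the high one, and the sign of the Dbp difference turned with them: it was 0.17 without IDE-KD replicate 1 and -0.24 without IDE-KD replicate 2.

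Tef, which encodes thyrotroph embryonic factor, the third PAR bZIP protein, read 5.02, 5.07, 4.82 and 5.20 on IDE-KD arrays and 4.79, 4.73, 5.07 and 4.96 on control arrays. The groups overlapped and differed on the log2 scale by 0.14 (SE 0.13, 95% confidence interval -0.14 to 0.42). It ranged from 0.08 to 0.21 when 1 array at a time was left out. The difference between Hlf and the other PAR bZIP genes was not tested, since the value of Hlf was known when it was chosen.

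Nfil3, the D-box repressor gene, read 5.89, 6.06, 6.0 and 5.65 on IDE-KD arrays and 5.75, 6.04, 5.68 and 5.65 on control arrays. Both groups covered nearly the same range, and the log2 difference was 0.12 (SE 0.14, 95% confidence interval -0.18 to 0.42), with 0.07 to 0.21 when 1 array at a time was left out.

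Among the Period genes, whose proteins inhibit CLOCK and BMAL1, Per3 had the lowest difference. Per3 read 6.27, 6.52, 5.93 and 6.17 on IDE-KD arrays and 6.58, 6.32, 6.45 and 6.58 on control arrays. IDE-KD arrays 1, 3 and 4 were below all control arrays, and array 2 was above 2 of them. The log2 difference was -0.26 (SE 0.14, 95% confidence interval -0.56 to 0.04, limma adjusted p = 1.00), and leaving out IDE-KD array 3 gave -0.16, leaving out array 2 -0.36.

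Per1, the Period gene that responds fastest to cAMP and glucocorticoids, read 7.07, 6.59, 6.62 and 6.78 on IDE-KD arrays and 6.68, 6.71, 6.77 and 6.85 on control arrays. The group means were 6.77 ± 0.22 in IDE-KD and 6.75 ± 0.08 in control cells (SD, n = 4 each), and IDE-KD array 1, the lowest for Dbp, was the highest of the 8 for Per1. The log2 difference of Per1 was 0.01 (SE 0.13, 95% confidence interval -0.27 to 0.30). Its sign turned when IDE-KD array 1 was left out (-0.09), when control array 1 or control array 2 was left out (-0.01 and -0.0012), and when array medians were subtracted (-0.00074).

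Per2, the Period gene whose product stabilises the repressor complex with cryptochromes, read 6.51, 5.94, 6.23 and 6.59 on IDE-KD arrays and 6.21, 6.67, 6.45 and 6.40 on control arrays. IDE-KD array 2, the highest for Dbp, was the lowest of the 8 for Per2. The log2 difference was -0.11 (SE 0.16, 95% confidence interval -0.46 to 0.23), and 0.01 without IDE-KD replicate 2.

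Cry1, which encodes a cryptochrome repressor, read 5.31, 4.98, 5.41 and 5.37 on IDE-KD arrays and 5.31, 5.29, 5.24 and 5.65 on control arrays. IDE-KD array 2 was below all others and control array 4 above all others. The log2 difference was -0.11 (SE 0.14, 95% confidence interval -0.41 to 0.19), and -0.01 without IDE-KD replicate 2.

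The REV-ERB genes overlapped between groups as well. Nr1d1 read 7.28, 6.99, 7.36 and 7.62 on IDE-KD arrays and 7.39, 7.35, 7.66 and 7.58 on control arrays, with a log2 difference at -0.18 (SE 0.15, 95% confidence interval -0.50 to 0.14). IDE-KD array 2 was again the lowest of the 8, and without it the difference was -0.07. Nr1d2 had the smallest spread of the members among IDE-KD arrays, reading 7.15, 7.33, 7.18 and 7.35 there and 7.24, 7.36, 7.17 and 7.39 on control arrays. Its log2 difference was -0.04 (SE 0.12, 95% confidence interval -0.29 to 0.21), with -0.08 to -0.0024 when 1 array at a time was left out.

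Of the 9 members other than Hlf, 6 had a difference below 0 and 3 above it, with a median of -0.05 and a range of -0.26 to 0.14. Over all tested probe sets the median was 0.01 and 47.9% were below 0, and over those above the median array control row the median was -0.02 and 55.1% were below 0. In this fit the 95% confidence intervals of all 9 lay within a 1.5-fold change either way. Limma draws the variance of each probe set towards that of the others. For Dbp, with SDs of 0.53 in IDE-KD and 0.11 in control cells, this gave a narrower interval than its own arrays alone would. That count was 6 to 9 over the other fits, where Per3, Dbp and, without IDE-KD replicate 4, Nr1d1 had wider intervals.

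**Figure D2:**
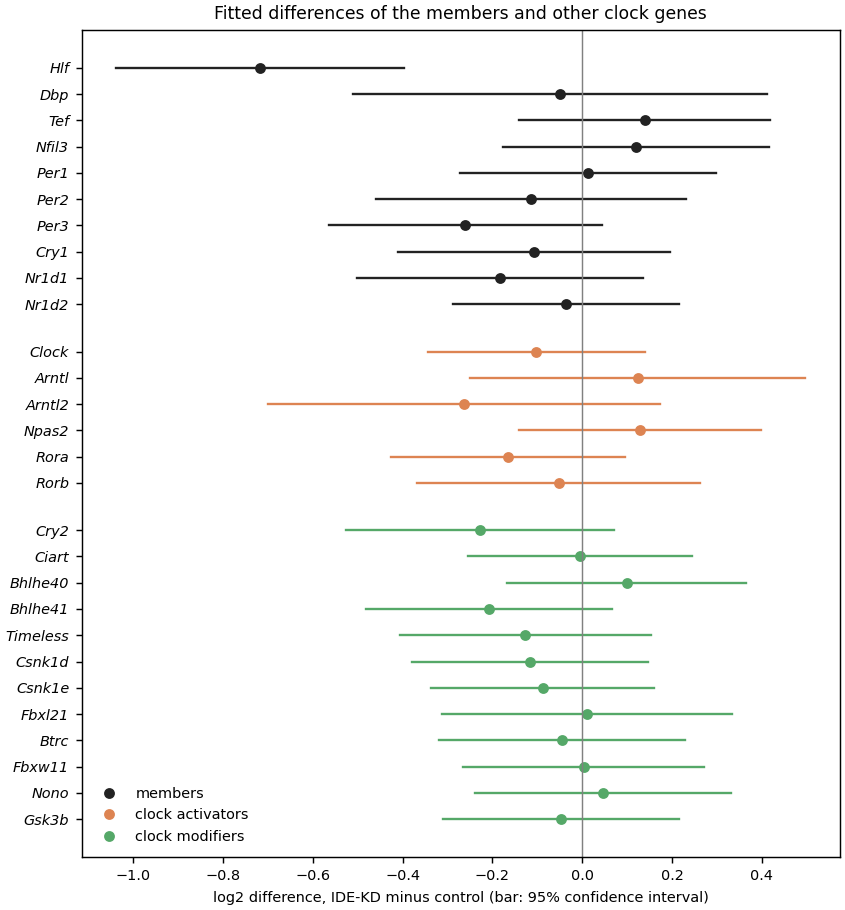
Log2 difference, IDE-KD minus control (x axis), of the 10 members (black), 6 clock activators (orange) and 12 clock modifiers (green), with 95% confidence intervals from limma as bars. Hlf is at -0.72, a value known when it was chosen, and the other 9 members lie between -0.26 and 0.14.

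The rest of the clock was read from lists of known genes. Of the positive arm, 6 of 7 listed genes were measured (2 higher, 4 lower, 0 called, median -0.08). Clock read 9.68 in IDE-KD and 9.79 in control cells, a difference of -0.10 (SE 0.11), and Arntl read 6.61 in IDE-KD and 6.49 in control cells, a difference of 0.12 (SE 0.17). Rora and Rorb, whose receptors activate through the ROR element, differed by -0.17 (SE 0.12) and -0.05 (SE 0.15). Npas2, a paralogue of Clock, and Arntl2, a paralogue of Arntl, had low signal, below the median array control row, at 3.29 and 3.04 in IDE-KD and 3.16 and 3.30 in control cells.

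Of 13 listed clock modifiers 12 were measured (4 higher, 8 lower, 0 called, median -0.05). Cry2, the second cryptochrome gene, had the lowest difference at -0.23 (SE 0.14), with 7.95 in IDE-KD and 8.18 in control cells. Bhlhe41, an E-box repressor gene, differed by -0.21 (SE 0.13), and its paralogue Bhlhe40 by 0.10 (SE 0.12). Ciart, whose product inhibits CLOCK and BMAL1 and whose mRNA follows Dbp in many mouse tissues, differed by -0.01 (SE 0.12). The casein kinase genes Csnk1d and Csnk1e, whose products phosphorylate the PER proteins, differed by -0.12 (SE 0.12) and -0.09 (SE 0.11).

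Of the C/EBP family, bZIP factors whose sites resemble the D-box, 6 of 6 genes were measured (2 higher, 4 lower, 0 called, median -0.02), with Ddit3 at -0.13 (SE 0.11) and Cebpg at -0.10 (SE 0.13). Of 16 clock output genes 15 were measured (7 higher, 8 lower, 0 called, median -0.02). Klf15, a Krüppel-like factor gene with rhythmic expression in mouse liver and heart, was the 1 gene of these lists whose groups did not overlap. It read 4.73 in IDE-KD and 4.29 in control cells, a difference of 0.44 (SE 0.16) with a limma adjusted p of 1.00, and its mean over the 8 arrays was below the median array control row. Noct, the nocturnin gene, differed by -0.17 (SE 0.11). Genes induced by cAMP or glucocorticoids had 3 higher and 6 lower members of 9 measured (10 listed, 0 called, median -0.05), with the nuclear receptor gene Nr4a1 at 0.21 (SE 0.12) and Klf9 at -0.19 (SE 0.12). Temperature response genes had 2 higher and 4 lower of 6 measured (7 listed, 0 called, median -0.08), with the cold-inducible gene Cirbp at -0.14 (SE 0.15) and the heat shock gene Hspa1b, whose sequence is nearly identical to that of Hspa1a and whose signal may be shared with it, at -0.13 (SE 0.14).
Over these 6 lists, 54 of 59 genes were measured, of which 20 were higher and 34 lower (median -0.05), and 1 was without overlap, against 2.8% of all probe sets.

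Whether Hlf moved with the other clock genes was then read from the deviations of each array from its own group mean, which do not contain the difference between the groups. Hlf was high on replicate 4 of both groups (0.27 above the IDE-KD mean and 0.30 above the control mean). It was low on IDE-KD array 1, at -0.23, and between -0.15 and 0.08 on the other 5 arrays. Over the 8 arrays 7 of the 9 other members correlated positively and 2 negatively with Hlf, with a median Pearson r of 0.29. Over all other probe sets the median r with Hlf was 0.02, and 51.4% were positive.

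**Figure D3:**
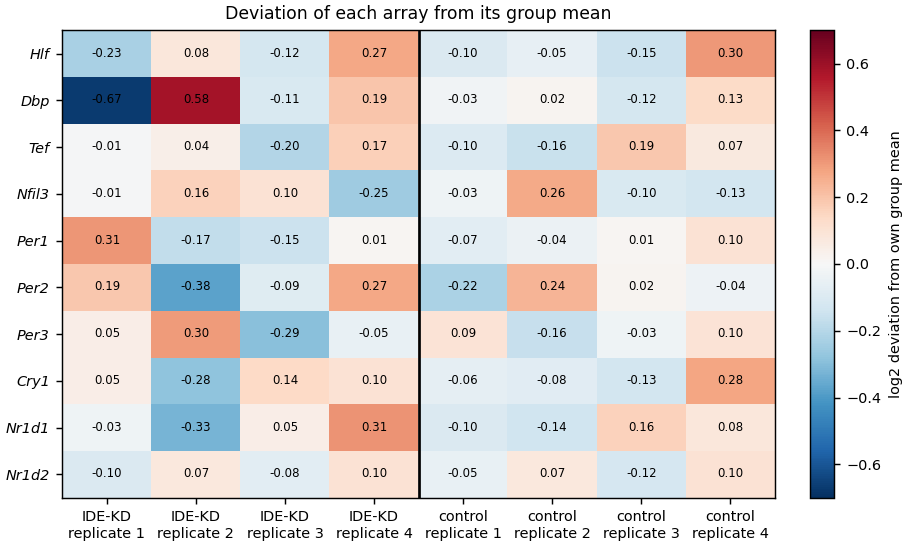
Log2 deviation of each member (rows) from its own group mean on the 4 IDE-KD arrays (left) and the 4 control arrays (right); red is above and blue below the group mean. The strongest colours are those of Dbp on IDE-KD array 1 (-0.67) and array 2 (0.58), and Hlf and Nr1d2 are both above their means on replicate 4 of each group.

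Nr1d2 had the highest r with Hlf in these deviations. Its own deviations were -0.10, 0.07, -0.08 and 0.10 on IDE-KD arrays 1 to 4 and -0.05, 0.07, -0.12 and 0.10 on control arrays 1 to 4, with the same sign as those of Hlf on 7 of 8 arrays. Pearson's r was 0.87 and Spearman's rho 0.95, and 99.2% of all other probe sets had a lower r with Hlf. An exact two-sided permutation test, which exchanged arrays within groups in all 576 ways, gave p = 0.0139 for r and p = 0.00868 for rho. Adjusted over the 9 relations, these exact p-values were 0.125 and 0.0625, above the threshold of 0.05. With other scalings r was 0.74 (quantile normalization again), 0.81 (cyclic loess) and 0.90 (array medians subtracted). Without the 2 arrays farthest from the median of Hlf, replicate 4 of each group, r was 0.86 over 6 arrays. Values over 6 arrays, here and below, keep the deviations from group means of all 4 arrays. Leaving out the arrays extreme for Hlf also narrows its range.

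Dbp came next, with r = 0.67 (exact permutation p = 0.101, adjusted 0.453) and rho = 0.90 (exact permutation p = 0.0139, adjusted 0.0625). Its deviations had the sign of those of Hlf on 7 of 8 arrays, and 92.0% of other probe sets had a lower r. Without replicate 4 of each group r was 0.97 over 6 arrays, of which IDE-KD arrays 1 and 2 lay farthest from their group mean of Dbp, at -0.67 and 0.58. Dbp and Nr1d2 also correlated with each other, with r = 0.72. Both were below their group means on every odd-numbered array and above them on every even-numbered array. Hlf had the same split except on control array 2, at -0.05. Deviations over all probe sets showed a like split, given in the closing section. Arrays of a group may therefore not be exchangeable, as the permutation tests assume, and the part of this split in these relations was not tested.

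**Figure D4:**
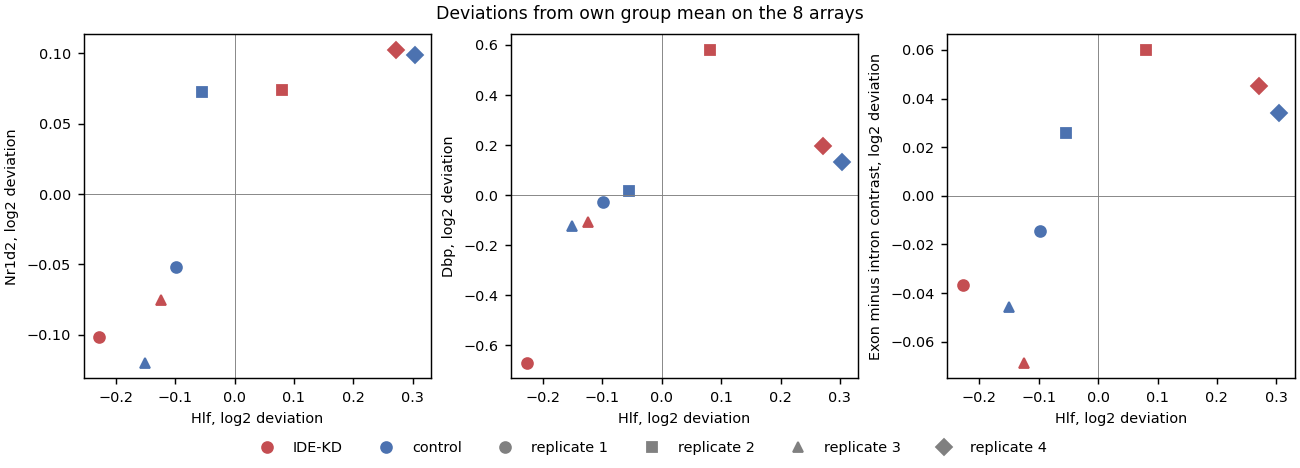
Log2 deviation of Hlf from its own group mean (x axes) against the deviations of Nr1d2 (left), Dbp (middle) and the exon minus intron control contrast of the array (right); red points are IDE-KD and blue points control arrays, with marker shapes for replicate numbers. Replicate 4 of both groups is at the upper right in the Nr1d2 panel, where r was 0.87, and the array contrast was also higher where Hlf was higher, with r = 0.78.

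A property of the arrays moved with the same genes. The mean of the exon control probe sets minus that of the intron control probe sets, a measure of how far expressed sequence stood above low signal, was 2.76, 2.85, 2.72 and 2.84 on IDE-KD arrays 1 to 4 and 2.74, 2.78, 2.71 and 2.79 on control arrays 1 to 4. Its within-group deviations correlated with those of Nr1d2 (r = 0.92, rho = 0.86), Hlf (r = 0.78, rho = 0.81) and Dbp (r = 0.74, rho = 0.90). The exact permutation p-values for r were 0.0174, 0.0642 and 0.116, and those for rho 0.0278, 0.0521 and 0.0330. Adjusted over the 10 members, the exact p-values were 0.174, 0.321 and 0.388 for r and 0.165, 0.174 and 0.165 for rho, in the order Nr1d2, Hlf and Dbp. Over all probe sets the median r with the contrast was 0.009. A lower r with it than that of Nr1d2 was found in 99.4% of probe sets, and than that of Hlf in 93.1%. Without the 2 arrays farthest from the median contrast, r was 0.995 for Nr1d2, 0.87 for Hlf and 0.75 for Dbp. After the contrast was removed from the deviations, a step added after the data were seen, the r of Hlf was 0.63 with Nr1d2 and 0.22 with Dbp, while it was 0.80 with Cry1 and 0.74 with Nr1d1. The part of this contrast in the relations was not tested further. With the contrast as a covariate in the group fit the difference of Hlf was -0.83 (SE 0.13), beside -0.72 (SE 0.15) without it. The median of the other 9 members was -0.10, beside -0.05. Dbp (-0.25), Tef (0.10), Per3 (-0.33) and Nr1d2 (-0.10) were lower than without the covariate, and Nfil3, Per1, Per2, Cry1 and Nr1d1 were slightly higher.

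The other 7 members gave no relation to Hlf that passed. Tef had r = 0.43 and Nfil3 r = -0.43, with exact permutation p-values of 0.347 and 0.345 (adjusted 0.678 each). Cry1 had r = 0.37, Nr1d1 0.29, Per3 0.27, Per2 0.02 and Per1 -0.11, with exact permutation p-values from 0.377 to 0.965 and adjusted values from 0.678 to 0.965. Their rho values were 0.24 for Tef, -0.29 for Nfil3, 0.26 for Cry1, 0.07 for Nr1d1, 0.31 for Per3, 0 for Per2 and -0.17 for Per1, with exact permutation p-values from 0.500 to 1.00 and adjusted values from 0.893 to 1.00. Several of these relations rested on replicate 4 of each group. Without those 2 arrays, with the group means kept as before, r was -0.03 for Tef, 0.61 for Nfil3, -0.74 for Cry1, -0.79 for Nr1d1 and -0.65 for Per2, so that the sign turned. For Per1 it was -0.76 and for Per3 0.46. The r of Per1 also rested on IDE-KD array 1, without which it was 0.79, and that of Cry1 on control array 4, without which it was -0.16.

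**Figure D5:**
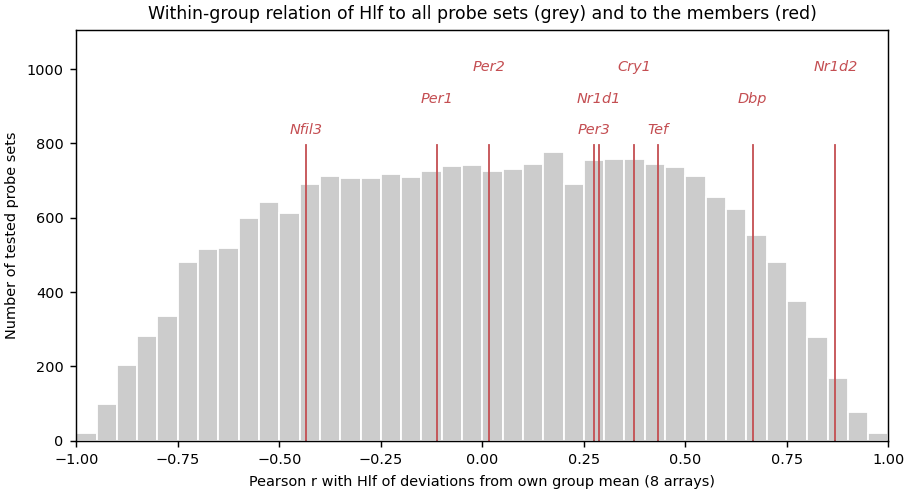
Distribution of Pearson's r with Hlf over all other tested probe sets (grey bars, number of probe sets per bin of r), from deviations from the own group mean over 8 arrays, with the 9 other members as red lines. Nr1d2 (0.87) and Dbp (0.67) lie towards the right end and Nfil3 (-0.43) is the lowest member.

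Among themselves the members fell into no single pattern. Of their 45 pairs 26 correlated positively (57.8%), with a median r of 0.09, against 50% of all pairs of probe sets and a median of 0.0005. These correlations are given as a description, over the same 8 arrays. The lowest r was that of Nfil3 with Nr1d1, at -0.81, followed by Dbp with Per1 and Tef with Nfil3, at -0.73 each. Per1 and Per2 correlated with each other (r = 0.58), as did Nr1d1 with Cry1 (r = 0.61), with Per2 (r = 0.60) and with Tef (r = 0.49). Nr1d1 and Nr1d2, the REV-ERB paralogues, did not (r = -0.06).

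Among the named genes searched, which left out dim rows, predicted genes and olfactory or vomeronasal receptors, those most like Hlf in their deviations were not clock genes. Among 11055 named genes above the median array control row, the highest Pearson r with Hlf over 8 arrays was that of Ankrd50 (0.98), followed by Nans, a sialic acid synthase gene (0.98), Yars, a tyrosyl-tRNA synthetase gene (0.98), Dbnl, an actin-binding adaptor gene (0.97), and Ap1g2, a clathrin adaptor subunit gene (0.97). Being the highest values picked from 11055 genes over only 8 arrays, they are a description, and no test set them against the members. Their differences between IDE-KD and control cells were -0.19 (SE 0.12), 0.01 (SE 0.12), 0.14 (SE 0.13), -0.09 (SE 0.12) and 0.01 (SE 0.19), in the same order, and in each of them the groups overlapped.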

How the data were processed

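RNA of 4 IDE-KD and 4 control samples was hybridised to Clariom S arrays, per the labels. The deposited values were log2 expression values, used unchanged. RMA, oligo and limma are listed in the submitters' processing notes, with no version. RMA usually equalises array distributions, so that a global shift in RNA would be lost. The sources used here name no genome build. Of 29129 rows, 22142 transcript clusters were tested, and 6923 array control rows and 64 unplaced rows were left out. The platform table gave 1 symbol to 19527 tested rows and none to 2615. IDE-KD minus control was fitted with limma 3.58.1 (R 4.3.3; lmFit, eBayes) on the 8 arrays, and p-values were adjusted by Benjamini-Hochberg over every tested row. The half-width of the 95% interval of a log2 difference had a median of 0.32, limited by the number of arrays. Correlations used deviations from the own group mean, with exact two-sided permutation within groups. Both steps were tested on simulated data. Motifs were searched on both strands of RefSeq windows. The genes named were the members, Ide, Gcg, any clock activator or modifier, the 2 genes with the smallest p in each other pathway list, and the 5 genes above the median array control row most like Hlf, predicted genes and olfactory or vomeronasal receptors left out. Cell type markers above or below the control row and genes with a single array apart were named after their values were seen. Members and lists were chosen with earlier results of these data known. Listed genes without a named row, and the Per2 promoter, were not analysed here. Alternatives changed the variance model, array weights, scaling, filter, block and arrays.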

Additional observations from a re-analysis of the deposited data

Results flagged for a closer look

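In groups of 4, an array stood apart from the other 3 by a Dixon ratio above its 95% critical value in 10 of 194 groups checked (97 genes), 5.15%, where chance flags about 1 in 20. Among the members this was Cry1 alone, at 5.65 on control replicate 4, with the next array at 5.31. Control replicate 4 was also the highest for Ankrd50 (5.54, next 5.30) and Pecam1 (4.36, next 3.98) and the lowest for Nampt (6.73, next 7.02) and Sst (4.999, next 5.64). Ankrd50 was checked because it was picked as most like Hlf, which was also highest among control arrays on replicate 4. Its flag is thus not independent of that choice, though it is counted among the 10. The others were Bhlhe40 on IDE-KD replicate 1 (10.21, next 10.00), Tspan4 on IDE-KD replicate 2 (6.66, next 6.97), Cd3e on IDE-KD replicate 2 (3.20, next 3.40), Cebpg on control replicate 1 (7.01, next 6.79) and Irx1 on control replicate 3 (6.36, next 6.48).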

How the results depend on the processing

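With eBayes set to trend and robust, array weights, the replicate block, 3 other scalings, the filter on dim rows, the added array contrast as covariate and each array left out, limma called 0 of all probe sets, 0 members and 0 of 54 other clock genes (46 tested under the filter on dim rows), as in the fit reported. The fits differed in their smallest adjusted p, which was 0.101 with the array contrast. Over those alternatives the Hlf difference ranged from -0.83 to -0.62, with -0.81 to -0.62 when 1 array was left out, and the median of the other 9 members from -0.11 to -0.0055, both ends from leaving out 1 array. The median r of Hlf with the other 9 members was 0.16 to 0.49 when 1 array was left out and -0.15 with the replicate block, and the cause was not tested. With that block r was 0.96 for Dbp, 0.62 for Per3, 0.60 for Nr1d2, 0.02 for Tef, -0.15 for Nfil3, -0.38 for Cry1, -0.72 for Nr1d1, -0.80 for Per1 and -0.96 for Per2, so Nr1d2 no longer had the highest. The block leaves same-numbered arrays with equal deviations of opposite sign. Each of these r therefore rests on only 4 values, can be large with so few, and was not tested. In the deviations from group means, without the block, same-numbered arrays of the groups correlated at 0.09 to 0.13. Of these, 2 of 4 values were not above 0.1, and not every array correlated best with its own number, so the numbers were not taken to pair the samples. Across the groups, however, arrays 1 and 3 correlated positively with arrays 1 and 3, and arrays 2 and 4 with arrays 2 and 4 (0.02 to 0.21). Odd-numbered with even-numbered arrays correlated negatively (-0.23 to -0.05). The deviations of Nr1d2 and Dbp had this split on all arrays, and those of Hlf on all but control array 2. The exact permutation tests took the arrays of a group as exchangeable, which may not hold under such a split. The source of this pattern was not tested. The block left the group differences as they were, with Hlf at -0.72, as it must in a design balanced over replicate numbers. It changed no call. Of the alternative values of these summaries, 93 kept their direction and side of the threshold or moved by less than the spread and 1 did not, and of those for single members 257 did and 13 did not. These counts include differences that could not change, under the block, the trend and robust setting and the filter on dim rows. The precision is limited by 4 arrays per group.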
